A study of Mus musculus with 6 samples.

Results

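The response of Tot2 cells to a retroviral KLF4 vector was measured against that to the empty vector on 4 of the 6 arrays of the study, the 2 arrays titled for the KLF4 vector and the 2 titled for the control vector. Every gene probe of these arrays was a member: 55681 probes other than controls, which gave values for 20263 genes of RefSeq, 13247 of them tested. Tot2 is a single line of myeloid progenitors that was derived from an Irf8 knockout mouse, so the cells of every group, the controls included, descend from an animal without that gene. By the labels, the control cells carried MSCV-puro, the compared cells MSCV-KLF4FLAG, and the remaining 2 arrays held cells with MSCV-IRF8FLAG. MSCV is a murine retroviral vector, and puro is its puromycin resistance gene. All groups grew in 20% fetal bovine serum and the growth factor GM-CSF (5.0 ng/ml), were infected in 4 µg/ml polybrene, selected in 2 µg/ml puromycin from 48 hr and harvested on day 4. The numbers 1 and 2 stand for 2 experiments described as independent, and each experiment was hybridised to a slide of its own that held all 3 groups. The question posed by the study was which genes monocyte differentiation under either factor engages.

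KLF4 is a zinc finger transcription factor of the Krüppel-like family that binds GC-rich and CACCC-type sequences. In the myeloid lineage it acts downstream of PU.1 and IRF8 and is needed for monocytes, above all for the inflammatory kind. In skin it is needed for the epidermal barrier, and in fibroblasts it is known as a reprogramming factor.

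Values are log2 signals of a gene's probe minus the 75th percentile of its array, so that 0 is the level at that percentile. The 75th percentile of raw intensity lay between 436 and 974 per array, and 47.1% to 56.8% of probes were well above background. The lowest signal called well above background lay between -5.42 and -4.32 on the log2 scale. Log2 signals of the 2 control arrays correlated at r = 0.993 across genes, those of the 2 KLF4-labelled arrays at 0.995, and control with KLF4-labelled arrays at 0.955 to 0.960, and genes are not independent replicates. With 2 arrays a group, an exact two-sided permutation test cannot go below p = 0.333, so all p-values come from the limma fit across genes.

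The labels were first checked on the genes of the vectors. Klf4 read -1.62 and -1.28 in control cells, -1.56 and -1.33 in KLF4-labelled cells and 4.46 and 4.61 on the IRF8-labelled arrays. The KLF4-labelled and control arrays overlapped, with a difference of 0.00 (SE 0.16, adjusted p = 0.987), and the high values were those of the IRF8-labelled arrays. The sources used here give neither the place of the Klf4 probe in the transcript nor the stretch that the vector carries. The probe does not bear out the label, and every direction given rests on the labels. Groups are therefore called KLF4-labelled and IRF8-labelled. Irf8 read 0.49 and 0.64 in control cells and 2.18 and 2.16 in KLF4-labelled cells, a rise of 1.60 (SE 0.10, adjusted p = 0.000606), and 2.94 and 3.05 on the IRF8-labelled arrays. Which part of Irf8 the knockout removed is also not given, so the Irf8 signal of control cells cannot be assigned to a functional transcript.

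**Figure D1:**
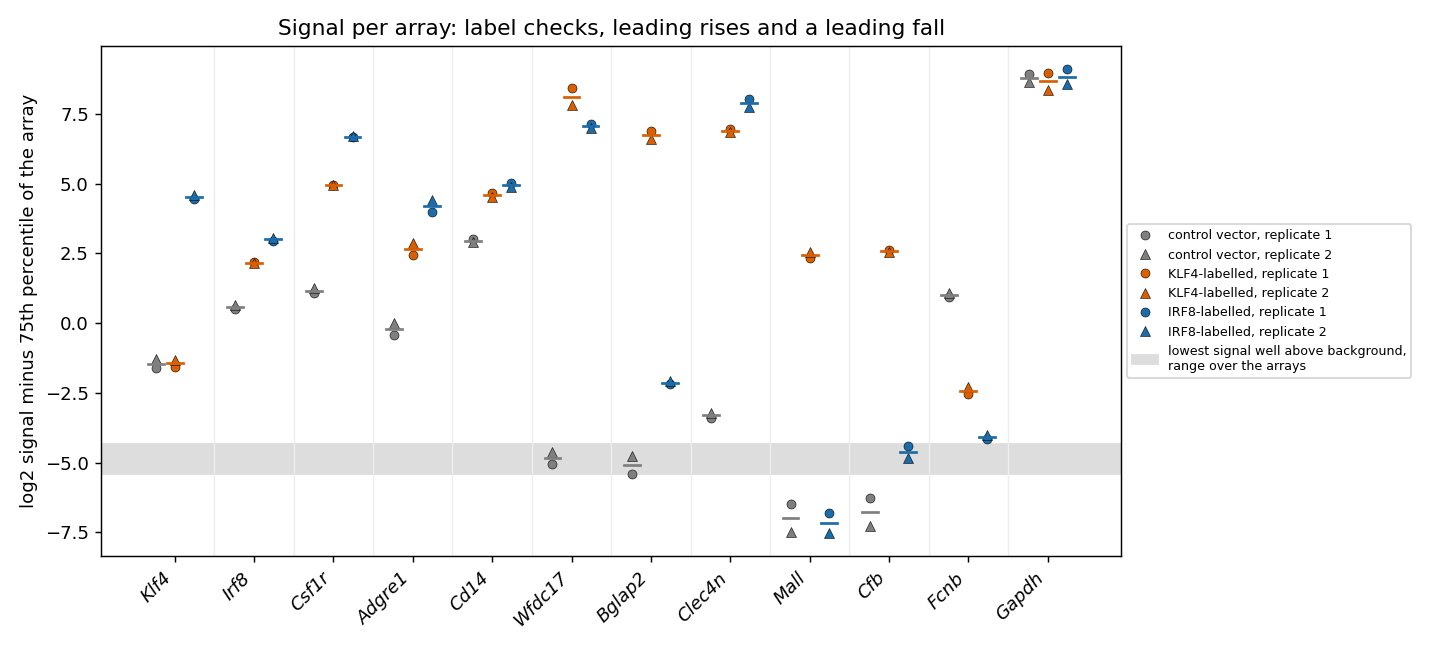
Log2 signal minus the 75th percentile of the array (vertical axis) for 12 genes in the 6 arrays, with circles for replicate 1, triangles for replicate 2 and bars for group means. The Klf4 points of the control and KLF4-labelled arrays lie between -1.62 and -1.28, whereas Wfdc17, Bglap2, Clec4n, Mall and Cfb stand at 2.32 or more on the KLF4-labelled arrays and at -3.21 or less on the control arrays. Fcnb runs the other way and Gapdh lies above 8.3 on all arrays.

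Promoters of genes among the largest rises, and of Fcnb, a leading fall, are shown because KLF4 is a sequence-specific factor. Of the 13247 genes tested, 10622 have a promoter in the RefSeq table (GRCm38.p6), which runs from 250 bases before to 50 bases after a transcript start. Each is written 5′ to 3′ in the direction of the gene, with matches on either strand to the motifs CCACACCC and CCACGCCC (Krüppel-like), CCGCCC (GC box), GAAANNGAA (interferon response), GGAANNGAA (ETS with IRF), GAGGAAGT (PU.1), TGANTCA (AP-1) and TATAAA in capitals. The letters GAAANNGAA and GGAANNGAA differ at a single base, so the matches can adjoin or overlap. The Bglap3 entry is the most upstream of its 3 starts.
Wfdc17 promoter (chr11:83703806-83704105, plus strand): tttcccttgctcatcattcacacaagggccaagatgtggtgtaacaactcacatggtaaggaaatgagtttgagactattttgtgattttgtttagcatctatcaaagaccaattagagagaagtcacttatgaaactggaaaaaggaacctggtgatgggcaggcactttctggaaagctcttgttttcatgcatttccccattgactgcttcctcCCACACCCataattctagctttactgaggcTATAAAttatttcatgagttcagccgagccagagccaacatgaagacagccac
Gpnmb promoter (chr6:49036268-49036567, plus strand): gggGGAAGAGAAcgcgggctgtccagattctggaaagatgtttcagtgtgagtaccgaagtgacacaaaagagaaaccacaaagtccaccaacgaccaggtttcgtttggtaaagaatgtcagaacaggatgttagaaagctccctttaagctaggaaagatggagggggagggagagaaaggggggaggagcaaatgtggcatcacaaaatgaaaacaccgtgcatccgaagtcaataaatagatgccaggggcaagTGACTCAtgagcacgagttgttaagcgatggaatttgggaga
Bglap3 promoter (chr3:88372692-88372991, minus strand): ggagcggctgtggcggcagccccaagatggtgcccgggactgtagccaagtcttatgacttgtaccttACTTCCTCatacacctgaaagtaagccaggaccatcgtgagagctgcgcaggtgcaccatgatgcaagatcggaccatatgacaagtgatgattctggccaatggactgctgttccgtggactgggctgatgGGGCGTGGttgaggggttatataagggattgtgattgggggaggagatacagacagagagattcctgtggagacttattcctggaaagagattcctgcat
Mall promoter (chr2:127729848-127730147, minus strand): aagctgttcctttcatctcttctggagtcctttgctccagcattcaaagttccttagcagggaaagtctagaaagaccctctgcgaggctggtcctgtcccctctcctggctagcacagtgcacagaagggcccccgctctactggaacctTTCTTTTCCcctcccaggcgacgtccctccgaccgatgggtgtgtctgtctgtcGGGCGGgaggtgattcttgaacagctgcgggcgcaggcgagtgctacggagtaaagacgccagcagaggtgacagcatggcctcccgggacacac
Ctss promoter (chr3:95526536-95526835, plus strand): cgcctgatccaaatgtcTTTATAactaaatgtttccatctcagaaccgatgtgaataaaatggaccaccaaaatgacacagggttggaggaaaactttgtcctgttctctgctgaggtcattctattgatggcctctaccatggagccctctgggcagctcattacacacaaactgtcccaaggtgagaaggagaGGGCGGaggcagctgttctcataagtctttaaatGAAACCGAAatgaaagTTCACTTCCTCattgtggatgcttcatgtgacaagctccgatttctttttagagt
Fcnb promoter (chr2:28084829-28085128, minus strand): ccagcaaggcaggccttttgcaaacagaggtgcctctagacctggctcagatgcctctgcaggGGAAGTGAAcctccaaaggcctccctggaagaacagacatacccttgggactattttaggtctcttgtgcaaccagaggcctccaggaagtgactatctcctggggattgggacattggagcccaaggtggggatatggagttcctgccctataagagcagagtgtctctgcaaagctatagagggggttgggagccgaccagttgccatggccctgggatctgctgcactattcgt

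The Wfdc17 promoter held CCACACCC close upstream of a TATAAA match, the Bglap3 promoter shown held CCACGCCC, and neither was found in those of Gpnmb, Mall, Ctss or Fcnb. At the next Bglap3 start none of the motifs was found, and the most downstream start held CCACACCC in place of CCACGCCC. Over all 10622 promoters, 3.94% held CCACACCC, against 6.65% of the 361 promoters of genes that rose at least 4-fold and 1.22% of the 82 of genes that fell at least 2-fold. CCACGCCC stood in 9.63% of all promoters, 4.71% of those that rose and 6.10% of those that fell. GC boxes were in 60.4%, 45.2% and 32.9% of the same sets. GAAANNGAA was found in 7.41% of all, 13.3% of risen and 4.88% of fallen genes, GAGGAAGT in 3.19%, 6.37% and 0, TGANTCA in 5.43%, 11.6% and 6.10%, and TATAAA in 8.28%, 14.1% and 17.1%. For GGAANNGAA the shares were 7.15%, 8.31% and 4.88%. A match describes the letters of the window and is not a binding site. Bglap2, Clec4n, Cfb and Cd14 had no entry in the table.

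Of 13247 genes, 2544 (19.2%) differed between KLF4-labelled and control cells at an adjusted p under 0.05, 1372 (10.4%) higher and 1172 (8.85%) lower. The rises were the larger changes: 851 genes (6.42%) rose at least 2-fold and 104 (0.785%) fell as far, and at 8-fold the counts were 273 and 15. The median difference was 0.72 in size among the genes called, and -0.16 with sign over all genes tested. For 255 of the genes that rose, KLF4-labelled arrays were well above background and no control array was, whereas 23 of the genes that fell were above background in control cells alone. Of the genes called, 17 were above background on no array of either group. All 2544 genes called had arrays that did not overlap between the 2 groups, as did 65.0% of all tested genes, so a lack of overlap adds nothing to a call.

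How many genes passed depended on the setting. The replicate number paired the arrays, whose deviations from the group means correlated at r = 0.321 between control and KLF4-labelled cells, and with it as a block 6744 genes passed, 2188 higher and 4556 lower. Rises were 53.9% of the calls with the 75th percentile, 67.1% with quantile normalization, 86.4% with median scaling and 89.4% with spike-in scaling, and the falls numbered 768, 199 and 94 under those 3. Falls outnumbered rises with every array above background (1451 and 1040, 41.8% rises), with trended and robust variance (1750 and 1468, 45.6% rises) and with the replicate block. The calls numbered 1185 without control replicate 1, 1411 without control replicate 2, 915 without KLF4-labelled replicate 1, 881 without KLF4-labelled replicate 2, and 1497 without either IRF8-labelled array. When an array of a compared group was left out, the lone array was assumed to vary like the other groups.

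**Figure D2:**
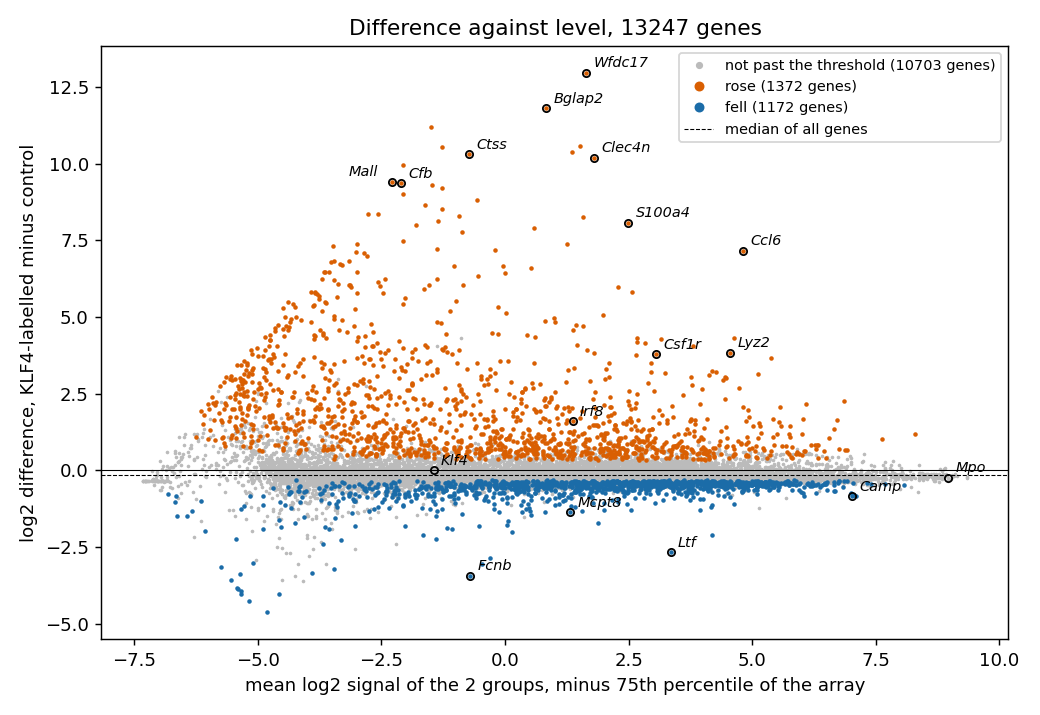
Log2 difference, KLF4-labelled minus control (vertical axis), against the mean log2 signal of the groups (horizontal axis) for 13247 genes, with 1372 rises in orange and 1172 falls in blue. Rises reach 12.96 (Wfdc17), whereas most falls lie within 1 unit of 0, apart from genes such as Fcnb and Ltf.

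The largest rise was that of Wfdc17, which encodes a small secreted protein of activated macrophages. It read -5.06 and -4.63 on the control arrays, of which 1 was above background, and 8.42 and 7.82 on the KLF4-labelled arrays, a difference of 12.96 (SE 0.25, adjusted p = 2.62e-05). Bglap2 and Bglap3, genes of the osteocalcin cluster best known from osteoblasts, came close behind. Bglap2 went from -5.40 and -4.75 to 6.90 and 6.58, a rise of 11.81 (SE 0.24, adjusted p = 3.02e-05), and Bglap3 from -3.98 and -3.56 to 6.92 and 6.69, a rise of 10.58 (SE 0.17, adjusted p = 1.92e-05). In each of these genes 1 control array was above background, the KLF4-labelled arrays did not overlap with the control arrays, and near-identical sequence means that a probe may read both osteocalcin genes. Clec4n, the gene of the fungal pattern receptor dectin-2, was measured on all arrays and rose from -3.39 and -3.21 to 6.95 and 6.83, by 10.19 (SE 0.14, adjusted p = 1.27e-05).

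Of the 15 largest rises, 10 had no control array above background and are given as bounds against the lowest signal well above background, from at least 151-fold to at least 604-fold. Ctss, the lysosomal protease cathepsin S, reached 4.28 and 4.57 on the KLF4-labelled arrays and rose at least 604-fold (adjusted p = 5.56e-05). Gpnmb, which encodes a transmembrane glycoprotein, rose at least 479.5-fold (adjusted p = 7.21e-05). Ahnak, the gene of a very large structural protein, rose at least 448-fold by its brightest probe (adjusted p = 2.57e-05). Other Ahnak probes rose 398-fold, 61.9-fold and 9.97-fold. Slc11a1, the metal transporter of phagosomes, rose at least 284-fold, Anpep (aminopeptidase N) at least 254-fold, Emp1 at least 212-fold, Wfdc18 at least 184-fold and the phospholipase gene Pla1a at least 152-fold. Mall, which encodes a membrane raft proteolipid, lay at -6.49 and -7.48 in control cells and 2.32 and 2.53 in KLF4-labelled cells and rose at least 151-fold (adjusted p = 0.000198). Cfb, factor B of the alternative complement pathway, lay at -6.28 and -7.27 and 2.63 and 2.54 and rose at least 168-fold (adjusted p = 0.000136). Agpat4, a lipid acyltransferase gene, rose by 8.83 (SE 0.17, adjusted p = 2.7e-05). All 15 of these genes kept direction and call under each alternative fitted.

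After each gene was centred on its mean, the pattern of Wfdc17 over the 6 arrays was nearest to those of Gpnmb, Clec4n and Emp1, at summed log2 distances of 4.59, 6.40 and 7.30. All of them were high on both KLF4-labelled and both IRF8-labelled arrays and low on the control arrays.

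The deepest measured fall was that of Fcnb, the gene of ficolin B, a lectin of neutrophil granules. It read 0.94 and 1.07 in control cells and -2.56 and -2.30 in KLF4-labelled cells, a difference of -3.43 (SE 0.12, adjusted p = 0.000127). Mrgpra2a, which encodes a Mas-related receptor, went from 0.75 and 1.35 to -2.27 and -1.73 (-3.05, SE 0.32, adjusted p = 0.00425), and the homeobox gene Pknox2 from -2.13 and -1.55 to -5.18 and -4.94 (-3.22, SE 0.21, adjusted p = 0.000816), where 1 KLF4-labelled array was above background. Those 3 kept their call under each alternative. The other 12 of the 15 largest falls (among them Gadl1, Tcerg1l, Sult2a3, Mc3r, Fscn2, Yap1, Zfp583, Etl4, Vat1l, Nlrp9a and Slc2a3) had no KLF4-labelled array above background, and their bounds ran from at least 2-fold to at least 7.64-fold. Control replicates of some of these differed widely, as in Yap1 (-2.12 and -4.82) and Tcerg1l (-1.71 and -4.39). Of the 12, 11 missed the threshold with normexp background correction and 7 with an array left out.

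Of genes that mark monocytes and macrophages, 22 rose and 2 fell among 35 tested (median 2.40, or 1.98 with genes at their bound, against -0.16 over all genes, of which 10.4% rose and 8.85% fell). Csf1r, the M-CSF receptor, read 1.09 and 1.24 in control cells and 4.94 and 4.96 in KLF4-labelled cells. It rose by 3.79 (SE 0.09, adjusted p = 4.42e-05), or 13.8-fold, by its brightest probe. Other Csf1r probes rose 18.2-fold and 2.84-fold, so the size of the rise depended on the probe. Adgre1, which encodes a surface antigen of macrophages, went from -0.41 and -0.01 to 2.46 and 2.86 (2.87, SE 0.24, adjusted p = 0.00177), and Cd14, the endotoxin co-receptor gene, from 3.01 and 2.89 to 4.67 and 4.51 (1.64, SE 0.11, adjusted p = 0.000826). All these genes were well above background in control cells already, and the groups did not overlap. Trem2, a lipid-sensing receptor, rose by 8.31 (SE 0.43, adjusted p = 0.000363) with 1 control array above background. Cx3cr1, the fractalkine receptor of patrolling monocytes, rose at least 37.6-fold (adjusted p = 8.17e-05) and Cd300e at least 25.8-fold (adjusted p = 0.00117). Itgam (CD11b) differed by 0.64 (SE 0.21, adjusted p = 0.0926), 4.28 and 3.75 against 4.79 and 4.51, by its brightest probe, which passed with the replicate block (adjusted p = 0.02). Its other probes were higher by 2.38 (adjusted p over all probes tested = 0.000126) and 1.32 (adjusted p over all probes tested = 0.00106), and the mean of the 3 probes by 1.45 (adjusted p = 0.00197). Ly6c1 differed by -0.15 (SE 0.21, adjusted p = 0.637) and the myeloid factor gene Spi1 (PU.1) by 0.32 (SE 0.09, adjusted p = 0.0713), neither past the threshold. With the replicate block Spi1 had an adjusted p of 0.0261 in all arrays and 0.0687 in the 2 groups alone. F13a1 and Spn were the 2 members that fell (-0.49 and -0.39), and neither passed with median scaling or when any 1 of the 6 arrays was left out. By setting, rises and falls were 23 and 0 with median scaling, 24 and 0 with spike-in scaling, 20 and 0 with normexp, and 20 to 24 and 0 with 1 of the 6 arrays left out.

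Among scavenger receptors and lipid handling genes, 12 rose and 0 fell among 21 tested (median 2.04). Besides Gpnmb and Trem2, Fabp4, a fatty acid carrier, rose at least 33-fold and Ch25h, which makes 25-hydroxycholesterol, at least 14.3-fold. Marco, a collagenous scavenger receptor, went from -3.92 and -3.49 to 1.57 and 1.39, by 5.19 (SE 0.17, adjusted p = 8.68e-05). Rises and falls numbered 12 and 4 with the replicate number as a block. In the C-type lectin receptors 11 rose and 2 fell among 20 tested (median 1.59, or 1.00 with genes at their bound). After Clec4n, the largest of these rises were those of its chromosomal relatives Clec4a1 (6.67, SE 0.20, adjusted p = 7.21e-05) and Clec4a3 (4.49, SE 0.21, adjusted p = 0.000261), and the mincle partner Clec4d rose by 2.94 (SE 0.09, adjusted p = 7.84e-05). The counts of rises and falls became 10 and 0 with spike-in scaling and 9 to 11 and 0 to 1 with 1 of the 6 arrays left out. The genes of the CD300 and MS4A membrane receptors gave 7 rises and 0 falls among 11 tested (median 2.00), with rises in Cd300ld (4.84), Cd300c2 (3.92), Cd300lb (2.37) and Cd300lf (2.34).

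Of the Toll-like receptors and their signalling genes, 9 rose and 1 fell among 26 tested (34.6% and 3.85%, beside 10.4% and 8.85% of all genes, median 0.23). Tlr13, the endosomal receptor for bacterial ribosomal RNA, stood at -2.94 and -2.61 in control cells and 3.66 and 3.96 in KLF4-labelled cells, a rise of 6.59 (SE 0.20, adjusted p = 7.72e-05). Ly96, the MD-2 subunit of the endotoxin receptor, rose by 2.79 (SE 0.19, adjusted p = 0.000853) and the muramyl dipeptide sensor Nod2 by 4.07 (SE 0.40, adjusted p = 0.00329), with 1 control array above background for Nod2. Nlrp3 rose at least 5.28-fold by its brightest probe and 2.95-fold by another, and it lost its call with normexp (adjusted p = 0.0573). Of this list, rises and falls came to 12 and 6 with the replicate number as a block. Of the Fc receptor genes 4 rose and 0 fell among 7 tested (median 0.83), namely Fcgrt (1.83), Fcgr4 (1.59), Fcer1g (1.36) and Fcgr3 (0.83), the last not past the threshold with spike-in scaling (adjusted p = 0.246).

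**Figure D3:**
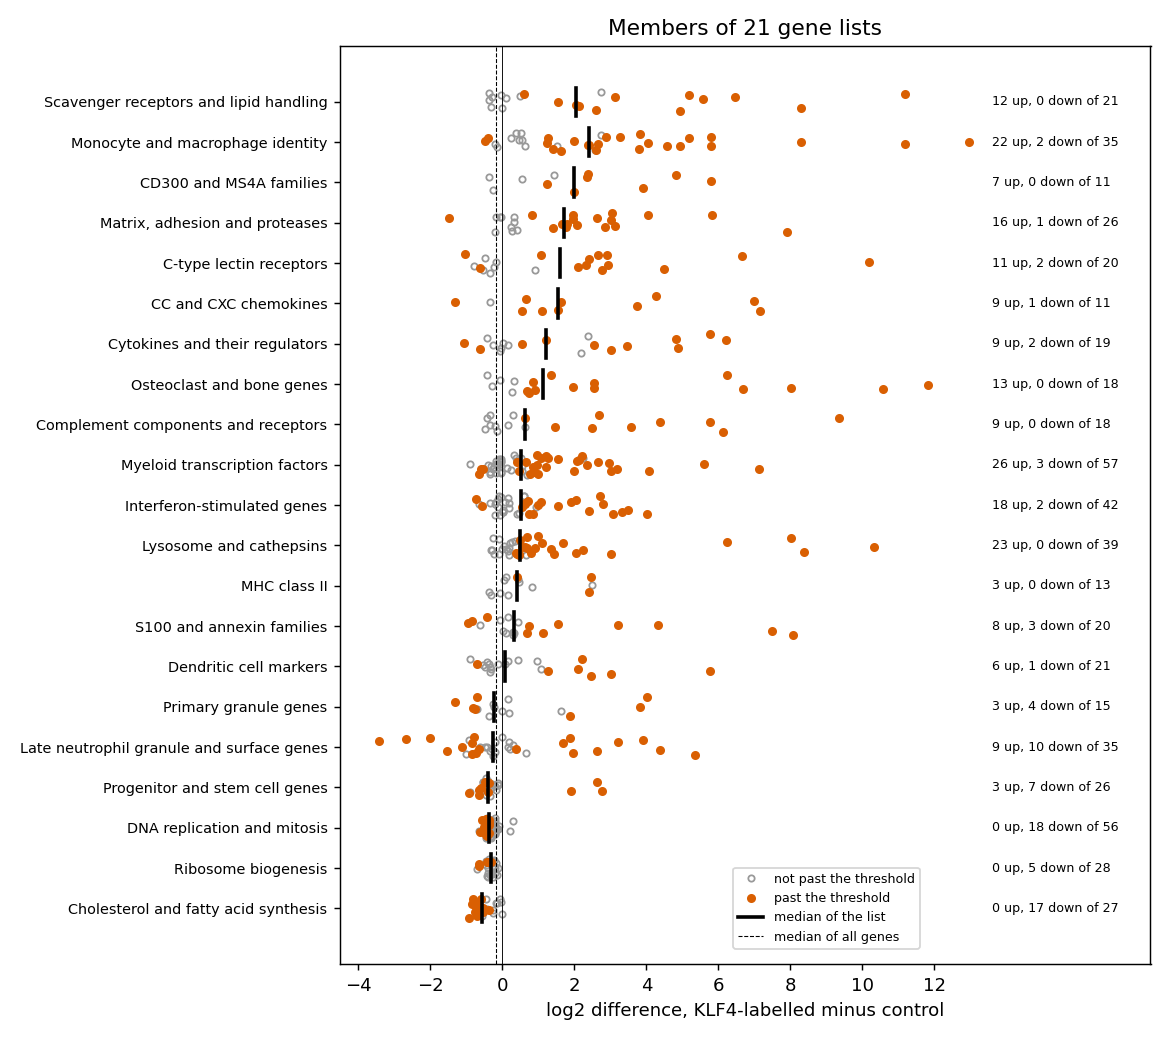
Log2 difference, KLF4-labelled minus control (horizontal axis), for the tested members of 21 gene lists, with filled points for members past the threshold, open points for the others and a bar at each median. Scavenger receptor and monocyte genes have medians of 2.04 and 2.40, and the lists of DNA replication, ribosome biogenesis and cholesterol synthesis have medians to the left of 0.

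Of 26 chemokine genes on the array, 11 were tested, and 9 of these rose and 1 fell (median 1.55). The others were not above background on both arrays of any group, so the count and median cover only members that passed this filter. Ccl6 was already expressed in control cells (1.12 and 1.35) and stood at 8.66 and 8.11 in KLF4-labelled cells, a rise of 7.15 (SE 0.28, adjusted p = 0.000153). Ccl4 and Ccl3, the inflammatory proteins MIP-1 beta and alpha, rose by 4.28 (SE 0.11, adjusted p = 5.17e-05) and 1.64 (SE 0.15, adjusted p = 0.0025). Ccl2, the main attractant of monocytes, had no control array above background and rose at least 45.7-fold to 0.73 and 0.67. Ccl7 rose at least 3.45-fold and lost its call with normexp (adjusted p = 0.114). The member that fell, Ccl12, was above background in neither group. Counted again, rises and falls were 5 and 0 with normexp.

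Of the chemokine and chemoattractant receptors 7 rose and 1 fell among 14 tested (median 1.19, or 0.35 with genes at their bound). The formyl peptide receptor genes Fpr2 and Fpr1 rose at least 12.2-fold and by 3.91 (SE 0.12, adjusted p = 8.17e-05). C5ar1, the C5a receptor, rose by 4.38 (SE 0.38, adjusted p = 0.0021), and in Fpr1 and C5ar1 1 control array was above background. Cxcr2, a neutrophil receptor, was the member that fell (-1.54, adjusted p = 0.0109), though not without control replicate 1 or KLF4-labelled replicate 2 (adjusted p = 0.0536 and 0.0713). Cytokine genes gave 9 rises and 2 falls among 19 tested (median 1.21, or 0.54 with genes at their bound). Il18 rose at least 45.1-fold and Il1b at least 14.4-fold, and the interleukin-1 receptor antagonist Il1rn, measured on all control arrays, went from -3.64 and -3.78 to 1.24 and 0.97 (4.81, SE 0.16, adjusted p = 0.000101). Csf1, the ligand of Csf1r, rose by 3.47 (SE 0.27, adjusted p = 0.00149) with 1 control array above background, and Tnfsf9 (4-1BB ligand) at least 8.79-fold. Rises and falls came to 10 and 0 with spike-in scaling.

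Receptors for growth factors and cytokines gave 10 rises and 1 fall among 26 tested (median 0.17). Beside Csf1r, Il7r rose at least 21.2-fold (adjusted p = 3.75e-05) and the tumour necrosis factor receptor Tnfrsf1b by 2.34 (SE 0.23, adjusted p = 0.00342). Il10ra went from -0.68 and -2.86 to 1.01 and 1.11 (2.83, SE 0.69, adjusted p = 0.0495), with wide spread between the control arrays, and it missed the threshold without either KLF4-labelled array (adjusted p = 0.16 and 0.186) or either IRF8-labelled array (0.0874 in each case). In other settings rises and falls were 12 and 4 with the replicate number as a block, 5 and 0 with spike-in scaling, and 6 to 9 and 0 to 2 with 1 of the 6 arrays left out.

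In lysosomal genes 23 rose and 0 fell among 39 tested (median 0.49, or 0.47 with genes at their bound). After Ctss, the asparaginyl protease legumain (Lgmn) rose at least 86.4-fold. The proton pump subunit Atp6v0d2 rose at least 128-fold by its brightest probe and 69.6-fold by another. Ctsk, cathepsin K, went from -3.88 and -5.10, with 1 array above background, to 1.65 and 1.84 (6.23, SE 0.40, adjusted p = 0.000758). Psap, the precursor of the saposins, was well above background in control cells (3.07 and 2.84) and rose to 6.14 and 5.79, by 3.01 (SE 0.27, adjusted p = 0.00223). Under other choices, rises and falls totalled 26 and 2 with the replicate number as a block, 10 and 0 with spike-in scaling, and 12 to 16 and 0 with 1 of the 6 arrays left out.

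Of genes known from osteoclasts and bone, 13 rose and 0 fell among 18 tested (median 1.12). Together with Bglap2, Bglap3, Ctsk and Atp6v0d2, the fusion protein gene Dcstamp rose at least 28.9-fold (adjusted p = 4.42e-05) and the integrin beta 3 gene Itgb3 by 2.55 (SE 0.15, adjusted p = 0.000511), with 1 control array above background. The osteoclast regulator Nfatc1 differed by -0.06 and Oscar by -0.28, neither past the threshold, though Oscar passed with the replicate block (adjusted p = 0.044). By setting, rises and falls were 14 and 2 with the replicate number as a block. Matrix, adhesion and protease genes gave 16 rises and 1 fall among 26 tested (median 1.71, or 1.34 with genes at their bound). The member that fell, Tgfbi, was above background in neither control nor KLF4-labelled cells. Timp2, an inhibitor of metalloproteinases, went from -0.50 and -0.17 to 5.47 and 5.50 (5.82, SE 0.14, adjusted p = 4.21e-05), the tetraspanin Cd9 rose by 7.91 (SE 0.15, adjusted p = 2.57e-05), thrombospondin 1 (Thbs1) by 3.06 (SE 0.14, adjusted p = 0.000227) and galectin 3 (Lgals3) by 3.13 (SE 0.16, adjusted p = 0.000385). Timp1 rose by 4.05 (SE 0.56, adjusted p = 0.0108) and was not past the threshold without KLF4-labelled replicate 1 or 2 (adjusted p = 0.0674 and 0.0764).

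Complement genes gave 9 rises and 0 falls among 18 tested (median 0.63). Besides Cfb, the receptor for C3a, C3ar1, rose at least 39.6-fold. Itgax, the alpha chain of complement receptor 4, rose at least 14.9-fold to -0.98 and -0.85, and its partner chain Itgb2 from 3.27 and 3.51 to a mean of 6.06 (2.67, SE 0.12, adjusted p = 0.000219). C4b read -2.37 and -4.22 and 0.31 and 0.23 (3.57, SE 0.64, adjusted p = 0.0232) and lost its call without KLF4-labelled replicate 1 or 2 (adjusted p = 0.111 and 0.117). The C1q chain genes were not past the threshold, with C1qa at 0.29. Rises and falls numbered 10 and 2 with the replicate number as a block.

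Among transcription factors of the myeloid lineage 26 rose and 3 fell among 57 tested (median 0.53, or 0.40 with genes at their bound). Gfi1b, a repressor of erythroid and megakaryocyte cells, rose at least 40.9-fold, and Atf3, a stress-induced factor, by 5.61 (SE 0.23, adjusted p = 0.000187) with 1 control array above background. Nr4a1 (Nur77), needed for patrolling monocytes, went from 1.22 and 1.49 to 4.56 and 4.55, a rise of 3.20 (SE 0.12, adjusted p = 0.000148). Bcl6 rose by 4.08 (SE 0.30, adjusted p = 0.00115), with 1 control array above background, and Batf3 by 3.01 (SE 0.19, adjusted p = 0.000769). Cebpe, Id2 and Nr4a2 were the members that fell (-0.66, -0.60 and -0.54), and none of the 3 passed with median scaling or without either KLF4-labelled array. The counts of rises and falls became 31 and 9 with the replicate number as a block, 25 and 0 with median scaling, 17 and 0 with spike-in scaling, 21 and 1 with normexp, and 16 to 24 and 0 to 1 with 1 of the 6 arrays left out.

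In the Krüppel-like and Sp family itself, 3 rose and 0 fell among 17 tested (17.6% and 0%, beside 10.4% and 8.85% of all genes, median -0.05). Klf2 went from 0.31 and 0.12 to 1.68 and 1.44 (1.34, SE 0.16, adjusted p = 0.00672), Klf3 from 2.04 and 2.18 to 3.39 and 3.41 (1.29, SE 0.09, adjusted p = 0.001) and Klf6 from 2.83 and 2.98 to 4.04 and 4.14 (1.18, SE 0.09, adjusted p = 0.00151). Of this list, rises and falls came to 5 and 3 with the replicate number as a block.

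Among interferon regulatory factors 5 rose and 0 fell among 11 tested (median 0.17). Irf5, an inducer of inflammatory cytokines, rose from -2.04 and -2.63 to -0.06 and -0.07 (2.26, SE 0.20, adjusted p = 0.00224). Irf7 rose by 2.04 (SE 0.15, adjusted p = 0.00111) with 1 control array above background, and Irf4 at least 2-fold, and both lost their call with normexp (adjusted p = 0.101 and 0.245). Irf4 also lost it with a floor on dim signals (adjusted p = 0.0936). Counted again, rises and falls were 2 and 0 with normexp. Interferon-stimulated genes gave 18 rises and 2 falls among 42 tested (median 0.51, or 0.31 with genes at their bound). Oas2, an antiviral sensor, went from -3.72 and -3.46 to 0.40 and 0.46 (4.02, SE 0.12, adjusted p = 7.21e-05), the nucleic acid sensor Zbp1 rose by 3.48 (SE 0.15, adjusted p = 0.000212) and Slfn2 by 3.32 (SE 0.11, adjusted p = 0.000101). Stat2 (0.03) and Irf1 (0.18) were not past the threshold. Rises and falls came to 15 and 0 with median scaling, 10 and 0 with spike-in scaling, 7 and 0 with normexp, and 10 to 16 and 0 to 1 with 1 of the 6 arrays left out.

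MHC class II genes gave 3 rises and 0 falls among 13 tested (median 0.42, or 0.10 with genes at their bound). Cd74, the invariant chain, went from -3.10 and -3.59 to -0.94 and -0.95 (2.40, SE 0.18, adjusted p = 0.00117), and the regulator Ciita differed by 0.16, which did not pass. H2-Eb2 rose by 2.46 (SE 0.22, adjusted p = 0.0023) with 1 control array above background, and H2-DMa by 0.42 (SE 0.09, adjusted p = 0.0345), which did not pass with any 1 of the 6 arrays left out. In other settings rises and falls were 5 and 1 with the replicate number as a block. Class I and peptide loading genes gave 7 rises and 2 falls among 24 tested (29.2% and 8.33%, beside 10.4% and 8.85% of all genes, median 0.10). B2m was at 0.81 (SE 0.14, adjusted p = 0.0195) and H2-D1 at 0.71 (SE 0.10, adjusted p = 0.0114). Under other choices, rises and falls totalled 10 and 5 with the replicate number as a block, 6 and 0 with median scaling, 0 and 0 with spike-in scaling, 7 and 0 with normexp, and 0 to 6 and 0 with 1 of the 6 arrays left out. Neither B2m nor H2-D1 was past the threshold with spike-in scaling or without control replicate 1, KLF4-labelled replicate 1 or KLF4-labelled replicate 2. Dendritic cell markers gave 6 rises and 1 fall among 21 tested (28.6% and 4.76%, median 0.08, or 0.00 with genes at their bound), with rises in Itgax, Batf3, Relb (2.23) and Clec10a (2.10). By setting, rises and falls were 7 and 6 with the replicate number as a block.

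Neutrophil genes moved in both directions. Of late granule and surface genes 9 rose and 10 fell among 35 tested (median -0.25). Those that fell included granule proteins: Ltf (lactoferrin) went from 4.60 and 4.76 to 1.89 and 2.14 (-2.67, SE 0.37, adjusted p = 0.0108), and Camp (cathelicidin) from 7.58 and 7.32 to 6.78 and 6.42 (-0.85, SE 0.17, adjusted p = 0.031). S100a8 fell by 0.84 (SE 0.13, adjusted p = 0.0168) on the log2 scale, and Ngp differed by -0.42 (SE 0.10, adjusted p = 0.051) and passed with the replicate block (adjusted p = 0.0134). Ltf was not past the threshold without KLF4-labelled replicate 1 or 2 (adjusted p = 0.0745 and 0.0634), S100a8 without control replicate 1 or KLF4-labelled replicate 2, and Camp without any 1 of the 6 arrays. The rises included Fpr2, Fpr1, annexin A1 (Anxa1, 3.22 (SE 0.09, adjusted p = 7e-05)) and the leukotriene enzyme Alox5, which rose at least 8.84-fold (adjusted p = 0.005). Fcnb, Ltf, S100a8 and Camp stayed well above background in KLF4-labelled cells. Rises and falls numbered 10 and 16 with the replicate number as a block, 8 and 4 with spike-in scaling, and 8 to 9 and 3 to 8 with 1 of the 6 arrays left out.

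Of primary granule genes of promyelocytes 3 rose and 4 fell among 15 tested (median -0.22). Mpo, myeloperoxidase, stood at 9.39 and 8.79 in control and 9.25 and 8.43 in KLF4-labelled cells, a difference of -0.25 (SE 0.36, adjusted p = 0.637) within the spread of the arrays. Prss57, a granule serine protease, fell from a mean of 3.20 to 1.88 and 1.91 (-1.30, SE 0.10, adjusted p = 0.00143), whereas Lyz2 (lysozyme M) rose from 2.62 and 2.66 to 6.44 and 6.50 (3.83, SE 0.16, adjusted p = 0.000203) and the eosinophil-type ribonuclease Ear2 by 4.03 (SE 0.26, adjusted p = 0.000741) with 1 control array above background. Elane, neutrophil elastase, differed by -0.71 (SE 0.19, adjusted p = 0.0605) and passed with the replicate block (adjusted p = 0.0214). The counts of rises and falls became 4 and 1 with spike-in scaling and 3 to 4 and 2 to 4 with 1 of the 6 arrays left out.

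Of progenitor and stem cell genes 3 rose and 7 fell among 26 tested (11.5% and 26.9%, beside 10.4% and 8.85% of all genes, median -0.40). The falls were small: Myb, a factor of proliferating progenitors, went from 6.11 and 6.15 to 5.67 and 5.62 (-0.48, SE 0.08, adjusted p = 0.0184), and Runx1 from 3.65 and 3.68 to 3.11 and 3.04 (-0.59, SE 0.10, adjusted p = 0.0171), and neither was past the threshold with median scaling or without any 1 of the control or KLF4-labelled arrays. The members that rose were the myeloid surface gene Cd33 (2.77, SE 0.09, adjusted p = 9.11e-05), the GATA partner Zfpm1 (2.63, SE 0.09, adjusted p = 9.37e-05) and Ly6a (1.90, SE 0.16, adjusted p = 0.00194). Of this list, rises and falls came to 3 and 18 with the replicate number as a block, 3 and 0 with median scaling and also with spike-in scaling, 3 and 2 with normexp, and 3 and 0 to 3 with 1 of the 6 arrays left out.

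Of the genes of DNA replication and mitosis, 0 rose and 18 fell among 56 tested (median -0.36), where 8.85% of all genes fell. Mcm7, a subunit of the replicative helicase, went from 6.32 and 6.33 to 5.81 and 5.74 (-0.55, SE 0.08, adjusted p = 0.0155), Gins1 differed by -0.61 (SE 0.10, adjusted p = 0.0179) and thymidylate synthase (Tyms) by -0.56 (SE 0.08, adjusted p = 0.0116). These 3 were not past the threshold with median or spike-in scaling, or without KLF4-labelled replicate 1 or 2. Mki67, the Ki-67 antigen, differed by -0.19 and Cdk1 by -0.20, neither past the threshold. Mki67 passed with the replicate block (adjusted p = 0.0379), and Cdk1 with the mean of its probes (-0.47, adjusted p = 0.0212). At an unadjusted p under 0.05, 0 members were higher and 35 lower. Counted again, rises and falls were 2 and 47 with the replicate number as a block, 0 and 0 with median scaling and also with spike-in scaling, 0 and 1 with normexp, and 0 and 0 to 4 with 1 of the 6 arrays left out.

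Among cyclins and their inhibitors 4 rose and 2 fell among 19 tested (21.1% and 10.5%, beside 10.4% and 8.85% of all genes, median -0.05). Ccnd1, cyclin D1, rose at least 10.3-fold from below background (adjusted p = 0.00203). Cdkn1a (p21) went from 3.66 and 3.80 to 4.34 and 4.27 (0.57, SE 0.10, adjusted p = 0.0204) by its brighter probe, the other probe differed by -0.14 (adjusted p over all probes tested = 0.465), and the mean of both by 0.21 (adjusted p = 0.182). The call was also lost with spike-in scaling (adjusted p = 0.679) and without control replicate 1, KLF4-labelled replicate 1 or KLF4-labelled replicate 2 (adjusted p = 0.0895, 0.111 and 0.0981). Rises and falls came to 7 and 7 with the replicate number as a block, 4 and 0 with median scaling, 2 and 0 with spike-in scaling, 3 and 0 with normexp, and 2 to 4 and 0 with 1 of the 6 arrays left out.

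Cholesterol and fatty acid synthesis showed the lowest median of the 43 lists examined: 0 rose and 17 fell among 27 tested (median -0.55). Scd2, a desaturase, went from 6.44 and 6.47 to 5.63 and 5.64 (-0.82, SE 0.08, adjusted p = 0.00288) and the elongase Elovl6 from 2.75 and 2.88 to 1.97 and 2.00 (-0.83, SE 0.09, adjusted p = 0.00447). Both missed the threshold with spike-in scaling alone. Cyp51, a sterol demethylase, differed by -0.93 (SE 0.18, adjusted p = 0.0306) and missed the threshold without any 1 of the control or KLF4-labelled arrays. In other settings rises and falls were 0 and 2 with median scaling, 0 and 0 with spike-in scaling, 0 and 9 with normexp, and 0 and 2 to 7 with 1 of the 6 arrays left out. Ribosome biogenesis gave 0 rises and 5 falls among 28 tested (median -0.32), with Dkc1 at -0.64 (SE 0.08, adjusted p = 0.00775), which missed the threshold without KLF4-labelled replicate 1 or 2. Under other choices, rises and falls totalled 0 and 24 with the replicate number as a block, 0 and 0 with median scaling and also with spike-in scaling, 0 and 2 with normexp, and 0 and 0 to 2 with 1 of the 6 arrays left out. At an unadjusted p under 0.05, limma had 0 cholesterol and 0 ribosome biogenesis genes higher and 22 and 13 lower.

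Genes of the other settings in which KLF4 is known were examined too. Of epithelial and epidermal genes 5 rose and 4 fell among 37 tested, of 71 on the array (13.5% and 10.8%, beside 10.4% and 8.85% of all genes, median -0.16). The rises were led by Emp1, Mall and the transglutaminase gene Tgm2. Tgm2 was measured on all arrays and went from -2.43 and -2.45 to 4.90 and 4.96 (7.37, SE 0.08, adjusted p = 1.02e-05) by its brightest probe. Another Tgm2 probe rose by 10.74, so the size of the rise depended on the probe. The keratin genes Krt5 (0.00) and Krt14 (0.01) were not past the threshold, and Cldn15, a claudin, fell by 0.70 (SE 0.08, adjusted p = 0.0047) on the log2 scale, though not with spike-in scaling (adjusted p = 0.554). By setting, rises and falls were 7 and 9 with the replicate number as a block, 5 and 1 with median scaling, 4 and 0 with spike-in scaling, 3 and 1 with normexp, and 4 to 5 and 1 to 3 with 1 of the 6 arrays left out. Of pluripotency genes 1 rose and 0 fell among 8 tested, of 17 on the array (12.5% and 0%, beside 10.4% and 8.85% of all genes, median -0.19). The member that rose was Klf2. Rises and falls numbered 1 and 2 with the replicate number as a block.

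KLF4-labelled cells were then compared with IRF8-labelled cells in the same fit, in which the control arrays add to the estimate of spread but not to the difference. Of the genes tested, 50.5% differed, 26.8% higher and 23.7% lower in KLF4-labelled cells. The values against control are set beside this difference; they share the control arrays. Mall was below background on both IRF8-labelled arrays and was at least 189-fold higher in KLF4-labelled cells. Bglap2 stood at -2.18 and -2.09 on the IRF8-labelled arrays and was higher by 8.87 (SE 0.24, adjusted p = 6.84e-05) in KLF4-labelled cells, and Bglap3 at -1.75 and -1.65, with a difference of 8.51 (SE 0.17, adjusted p = 3.11e-05). Cfb read -4.41 and -4.82, with 1 array above background, and differed by 7.20 (SE 0.35, adjusted p = 0.000211). Wfdc17 was closer, at 7.14 and 7.01, and still higher in KLF4-labelled cells by 1.04 (SE 0.25, adjusted p = 0.0208).

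Other genes were above both control and IRF8-labelled cells. Krtdap, a secreted protein of keratinocytes, and Ambp, the precursor of alpha-1-microglobulin, were above background in KLF4-labelled cells alone, at least 23.8-fold and at least 19-fold higher than in IRF8-labelled cells. C5ar1 was at least 22.4-fold higher and Tgm2 higher by 5.97 (SE 0.08, adjusted p = 2.42e-05). Stfa3, a stefin that inhibits cysteine proteases, read 5.19 and 5.18 in control cells, a mean of 6.86 in KLF4-labelled cells and 0.71 and 0.79 in IRF8-labelled cells, though its probe may read related stefins.

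In the opposite direction, Tgfbi, an adhesion protein of the matrix, was above background in IRF8-labelled cells alone (5.95 and 5.97) and was at least 2248-fold lower in KLF4-labelled cells. Plbd1, a granule phospholipase, was likewise at least 164-fold lower and Ccl12 at least 21.3-fold lower. Niban1 read -2.84 and -2.70 in control cells, -3.44 and -3.57 in KLF4-labelled cells and 2.72 and 2.65 in IRF8-labelled cells, a difference between the vectors of -6.20 (SE 0.10, adjusted p = 2.82e-05). Cd74 differed from IRF8-labelled cells by -8.34 (SE 0.18, adjusted p = 3.22e-05), Itgax by -5.96 (SE 0.23, adjusted p = 0.000135), cyclin D1 by -6.25 (SE 0.39, adjusted p = 0.000379) and Ctss by -3.74 (SE 0.27, adjusted p = 0.000557). Each of these last 4 was higher in KLF4-labelled than in control cells, as given for each.

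**Figure D4:**
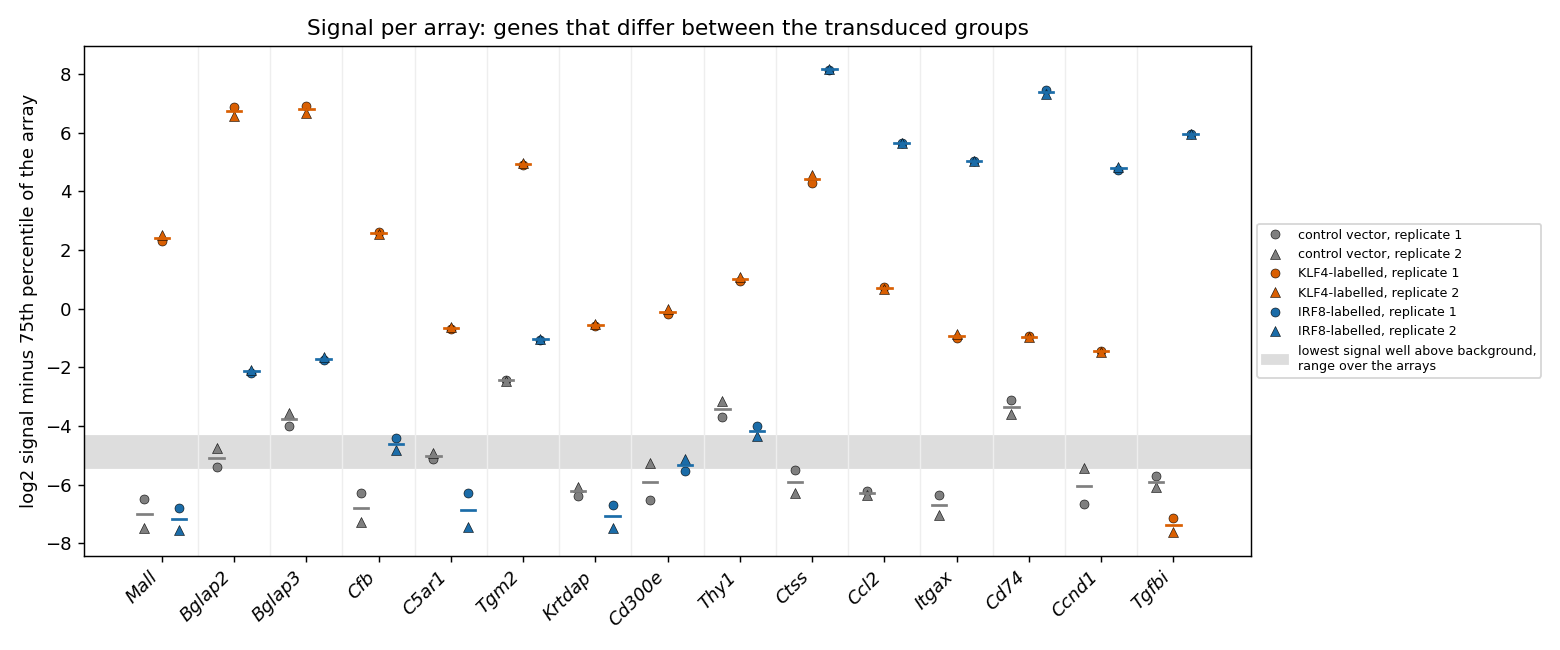
Log2 signal minus the 75th percentile of the array (vertical axis) for 15 genes in the 6 arrays, with circles for replicate 1, triangles for replicate 2 and bars for group means. From Mall to Thy1 the KLF4-labelled points are the highest, and from Ctss to Tgfbi the IRF8-labelled points are. Tgfbi lies below -5.7 in control and KLF4-labelled cells.

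Group by group, 29 of the 35 late neutrophil genes were higher in KLF4-labelled than in IRF8-labelled cells and 3 lower, with a median difference of 3.70. Their medians against control were -0.25 for KLF4-labelled and -3.22 for IRF8-labelled cells. Of the 56 DNA replication and mitosis genes 48 were higher and 1 lower, with medians against control of -0.36 and -1.23. Of 11 chemokine genes 0 were higher and 8 lower in KLF4-labelled cells (median -2.70), and of 13 MHC class II genes 3 were higher and 8 lower (median -3.76). Of 27 cholesterol and fatty acid synthesis genes 2 were higher and 8 lower (median -0.16). These counts are to be read beside all genes tested, of which 26.8% were higher and 23.7% lower, with a median of 0.01. The share of cholesterol genes that was lower, and that of MHC class II genes that was higher, lay near those of all genes.

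The difference was also taken within each experiment, which shares a slide. Wfdc17 differed by 13.47 on the slide of replicate 1 and 12.45 on that of replicate 2, Clec4n by 10.35 and 10.04, Csf1r by 3.86 and 3.72, and Fcnb by -3.50 and -3.37. The gap between experiments had a median of 0.12 over all genes tested. The Timp1 difference was 4.79 and 3.30, a wider gap, and that of Yap1 was -4.97 and -2.76.

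**Figure D5:**
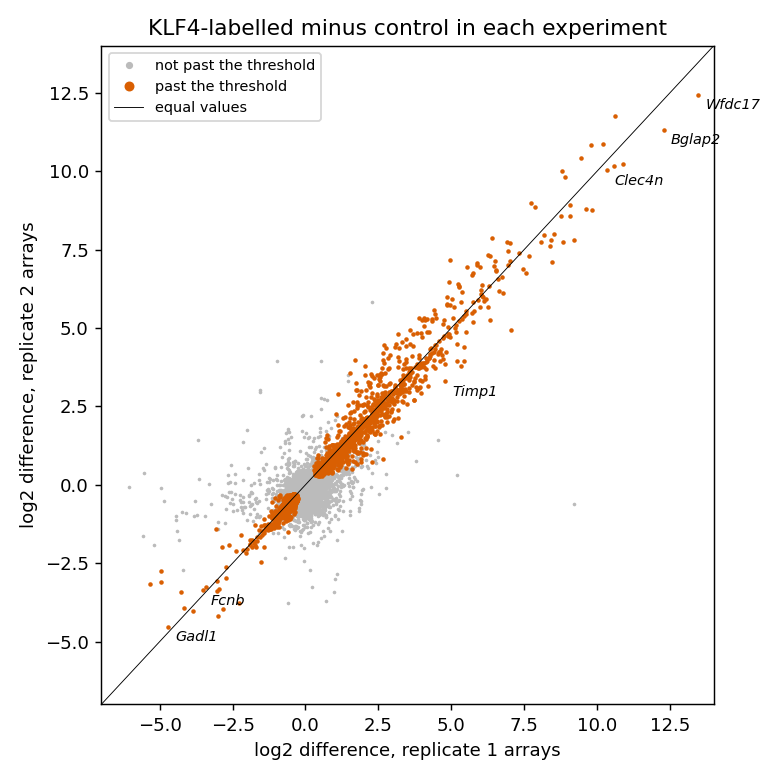
Log2 difference, KLF4-labelled minus control, on the arrays of replicate 1 (horizontal axis) and replicate 2 (vertical axis) for 13247 genes, with genes past the threshold in orange and a line of equal values. Genes past the threshold lie along the line, from Gadl1 and Fcnb at the lower left to Wfdc17 at the upper right.

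Defining markers of the cell types that the cultures could hold were read in both groups, with signals summed on the linear scale, where 1 is the 75th percentile. All 5 monocyte and macrophage markers on the array were above background in control and KLF4-labelled cells alike, so the control cells were not without them (summed level 412 to 515 and 411 to 559), and 3 of 5 rose. Ly6c1, at a mean log2 signal of 8.24 over the 6 arrays, made up most of these sums. The sums therefore do not show the rises of Csf1r, Adgre1 and Cd14. The summed level of 7 neutrophil markers was 667 to 817 in control and 372 to 510.2 in KLF4-labelled cells, and 1 of the 7 rose and 4 fell. That of 6 progenitor markers was 1039 to 1394 and 711 to 1061, so the sums of the groups overlapped. Among the 5 progenitor markers tested 0 rose and 2 fell, and Mpo, a bright member of that sum, was not past the threshold (-0.25, adjusted p = 0.637). Of the progenitor markers, Kit and Cd34 were not well above background in either group. In bulk RNA, fewer cells of a type and less RNA per cell cannot be told apart.

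Fibroblast and packaging cell markers summed to 0.257 to 0.29 in control and 2.16 to 2.26 in KLF4-labelled cells. Of these 8 markers, Pdgfra, Pdgfrb, Dcn and Lum were not well above background in KLF4-labelled cells, and Thy1 was the member that rose, from -3.68 and -3.14 to 0.95 and 1.09 (4.43, SE 0.22, adjusted p = 0.000309). Lymphocyte markers summed to 4.88 to 5.59 and 4.41 to 4.75, with Il7r the member that rose. Erythroid and megakaryocyte markers summed to 1.91 to 2.05 and 1.51 to 1.58, with Pf4 and Itga2b not well above background. In the wider list of that kind, Vwf (von Willebrand factor) rose from -5.49 and -4.02 to a mean of 3.03 (7.78, SE 0.47, adjusted p = 0.00063), with 1 control array above background. Mast cell and basophil markers summed to 3.97 to 4.15 and 1.57 to 1.64. Of those, Mcpt8, a basophil protease, fell from 1.97 and 2.04 to 0.68 and 0.60 (-1.36, SE 0.08, adjusted p = 0.000662), and Cpa3, Ms4a2, Fcer1a and Gata2 were not well above background in either group. In the wider list of basophil, mast cell and eosinophil genes, the tryptase gene Tpsb2 rose from -0.19 and -0.51 to 2.15 and 1.72 (2.28, SE 0.20, adjusted p = 0.00218). From no control array above background, Il1rl1 rose at least 1.84-fold and Prg2 at least 1.64-fold, and both lost their call with normexp (adjusted p = 0.274 and 0.522). With a floor on dim signals both lost it too (adjusted p = 0.138 and 0.227). The mean of the Il1rl1 probes also missed the threshold (0.54, adjusted p = 0.157). Another Il1rl1 probe differed by -0.35 (adjusted p over all probes tested = 0.512). What part such cells have in the differences was not tested.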

How the data were processed

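Total RNA of 6 cultures was measured on 1-colour Agilent arrays, and per the labels each culture is a sample of 1 of 3 groups with replicate numbers 1 and 2. Per the file headers, the authors' processed intensity (gProcessedSignal) is a background-corrected signal on a linear scale, written by Agilent Feature Extraction (10.7.3.1). The slide of an array comes from the deposited file headers. In the deposited value table each column was that processed intensity times 1 factor of the array (0.642 to 1.39), within 1% for 55446 to 55500 probes, so its scale is linear and its direction the same. How the authors chose the factors is not given in the sources used here.

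Control spots, and 75 probes with an outlier flag on every spot of an array, were left out, spots of a probe were averaged on the log2 scale, and each array's 75th percentile was subtracted. Probes were matched by RefSeq accession (26762 of 55681 probes, 20284 genes), and the brightest probe over the 6 arrays stood for a gene. Among 3460 genes with several tested probes, 3 had probes called in both directions. Genes were tested whose probe passed the software's background flag on each array of at least 1 group. A gene dim in control cells was thus tested only where a transduced group passed, which favours rises in lists with many dim members. Groups were fitted together with limma 3.58.1 in R 4.3.3 (lmFit and eBayes, 3 residual degrees of freedom), with Benjamini-Hochberg adjustment and a threshold of 0.05. "Rose" and "fell" mean past that threshold. The counts of rises and falls in a list are to be read beside 10.4% and 8.85% of all genes tested. A gene dim in a whole group has a bound, "at least N-fold", against the lowest signal well above background on each array. The bound holds for the brightest probe, and other probes of the gene can lie below it. The number of arrays limits the precision.

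Same-numbered arrays deviated together (r = 0.321 for control with KLF4-labelled, 0.282 for control with IRF8-labelled, 0.391 for IRF8-labelled with KLF4-labelled arrays). Each number lies on a slide of its own, so the block of replicate number is also the block of slide. P-values measure the spread between these cultures, which come from 1 cell line.

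The genes and lists were chosen with earlier results of these data known. Named are the 15 largest rises and falls whose arrays do not overlap between groups, up to 5 leading members of each list, the 8 genes highest and the 8 lowest against both other groups, preset genes, and the 3 nearest to Wfdc17. Other genes were named after their values were seen. Some genes that the rule names are not reported here. Alternatives were quantile, median, spike-in and probe-level percentile scaling, normexp, the deposited value table, other filters on dim probes, a floor, the mean of a gene's probes, the replicate block, trended and robust variance, the 2 groups alone, and leaving out each array. Normexp used median foreground signals, and it and the probe-level percentile were added after seeing the data. The fit was tested on simulated data.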

Additional observations from a re-analysis of the deposited data

How the results depend on the processing

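The count of genes past the threshold between KLF4-labelled and control cells (2544) stayed within 1.5 times with quantile normalization, the percentile over probes, the deposited value table, a filter of every array above background, a floor, the mean of a gene's probes, and trended and robust variance (2110 to 3218), though falls were 768 with quantile normalization, 752 with the percentile over probes and 736 with the value table. It was 1458 with median scaling (199 lower), 887 with spike-in scaling (793 higher, 94 lower), 1052 with normexp (788 and 264), 974 without a filter on dim probes (825 and 149, of 20263 genes) and 1497 with the 2 groups alone (388 lower). With 1 array left out it was 881 to 1497 (771 to 1117 higher, 110 to 388 lower), lowest without KLF4-labelled replicate 2. With the replicate block it was 6744 (2188 and 4556), and with the 2 groups alone and that block 3861 (2166 lower). Between KLF4-labelled and IRF8-labelled cells the 6695 calls became 2719 with spike-in scaling, 8910 with the replicate block and 4656 to 6485 with 1 array left out.

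Of 206 genes named by rule and past the threshold against control, 120 kept direction and call under all alternatives that gave them a value, 85 lost the call under at least 1, and 1, Blnk, changed sign (-0.000547 with normexp and -0.36 with a floor). Named genes not past the threshold changed sign as follows, none with a call. With 1 array left out the differences ran from -0.27 to 0.35 in Actb, -0.44 to 0.17 in Gapdh, -0.17 to 0.17 in Klf4, -0.41 to 0.12 in Ly6c1 and -0.66 to 0.16 in Mpo. Gapdh differed by 0.045 and Ly6c1 by 0.045 with quantile normalization, and Klf4 by -0.045 with normexp. The cause was not tested.

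Probes near background limit many of the largest rises to a bound, and with 2 arrays a group small falls depend on the scaling and on single arrays.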

Other observations

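Of the S100 and annexin genes, calcium-binding proteins, 8 rose and 3 fell among 20 tested (median 0.32, against -0.16 over all genes). S100a4 read -1.61 and -1.48 in control cells and 6.57 and 6.49 in KLF4-labelled cells and rose by 8.07 (SE 0.09, adjusted p = 1.02e-05), and S100a6 rose by 4.32 (SE 0.18, adjusted p = 0.000172). Anxa8 had no control array above background and rose at least 89.3-fold by its brightest probe (adjusted p = 3.12e-05). Another Anxa8 probe rose 12.9-fold. Under the alternatives the difference of the gene ran from 1.07 to 7.68, with the call kept. By setting, rises and falls were 5 and 0 with spike-in scaling and 5 to 7 and 0 to 2 with 1 of the 6 arrays left out. Leukocyte integrin genes gave 6 rises and 1 fall among 14 tested (median 0.43). Itgb7, the beta 7 chain of gut-homing integrins, had no control array above background and rose at least 169-fold to 2.66 and 2.73 (adjusted p = 7.21e-05), and Itga5, the alpha chain of the fibronectin receptor, rose by 1.26 (SE 0.14, adjusted p = 0.00442). Rises and falls numbered 9 and 5 with the replicate number as a block. Of the NADPH oxidase genes 2 rose and 0 fell among 7 tested (median 0.31), with Cybb, the catalytic subunit of phagocytes, going from -0.37 and -0.34 to 2.91 and 2.89 (3.26, SE 0.35, adjusted p = 0.00438). The counts of rises and falls became 4 and 0 with the replicate number as a block. Basophil, mast cell and eosinophil markers gave 4 rises and 3 falls among 11 tested, of 21 on the array (36.4% and 27.3%, beside 10.4% and 8.85% of all genes, median -0.46, or 0.00 with genes at their bound). Of this list, rises and falls came to 3 and 1 with spike-in scaling, 2 and 1 with normexp, and 2 to 4 and 1 to 2 with 1 of the 6 arrays left out.

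In the genes of iron uptake, storage and export, 5 rose and 2 fell among 17 tested (median 0.06). Besides Slc11a1, the heme-degrading enzyme gene Hmox1 went from -0.91 and -0.96 to 1.53 and 1.70 (2.55, SE 0.09, adjusted p = 0.000135), and Cp (ceruloplasmin) rose at least 14.8-fold (adjusted p = 0.0013). Counted again, rises and falls were 5 and 5 with the replicate number as a block, 5 and 0 with median scaling, 6 and 0 with spike-in scaling, and 4 to 5 and 0 to 1 with 1 of the 6 arrays left out. Prostaglandin and leukotriene genes gave 7 rises and 1 fall among 18 tested (median -0.04, or 0.00 with genes at their bound), with Alox5 and the prostacyclin receptor gene Ptgir (1.74, SE 0.10, adjusted p = 0.000455) the largest rises. Rises and falls came to 7 and 4 with the replicate number as a block, 3 and 0 with spike-in scaling, 4 and 0 with normexp, and 3 to 5 and 0 with 1 of the 6 arrays left out. Among p53 targets and apoptosis genes 10 rose and 3 fell among 41 tested (24.4% and 7.32%, beside 10.4% and 8.85% of all genes, median 0.00). The death receptor gene Fas rose by 2.04 (SE 0.15, adjusted p = 0.00111). In other settings rises and falls were 14 and 13 with the replicate number as a block, 9 and 0 with median scaling, 3 and 0 with spike-in scaling, 8 and 1 with normexp, and 4 to 9 and 0 with 1 of the 6 arrays left out. Heat shock, ATF4 and unfolded protein response genes gave 3 rises and 7 falls among 29 tested (10.3% and 24.1%, beside 10.4% and 8.85% of all genes, median -0.26). The cystine transporter gene Slc7a11 rose by 1.55 (SE 0.12, adjusted p = 0.00146). Under other choices, rises and falls totalled 4 and 16 with the replicate number as a block, 3 and 0 with median scaling, 2 and 0 with spike-in scaling and also with normexp, and 2 to 3 and 0 to 1 with 1 of the 6 arrays left out. Of the glycolysis genes 2 rose and 3 fell among 23 tested (8.7% and 13%, beside 10.4% and 8.85% of all genes, median 0.08). By setting, rises and falls were 3 and 5 with the replicate number as a block, 2 and 1 with median scaling, 0 and 1 with spike-in scaling, 2 and 0 with normexp, and 0 to 2 and 0 to 2 with 1 of the 6 arrays left out.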
